A study of Mus musculus with 16 samples.

Results

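Messenger RNA of gastrocnemius, a calf muscle, was followed for 10 genes of the interleukin-6 (IL-6) receptor pathway, out of 21923 genes in the deposited table. They are the receptor chains Il6ra, Il6st, Osmr, Lifr, and Cntfr, the kinases Jak1 and Jak2, the transcription factor Stat3, and the STAT3 targets Socs3 and Pim1. The genes were named as members of this pathway and found by their symbols, and Il6ra in particular was selected on its measured level, which was high in one group of mice. Its level is therefore given as a description without a test, and the other 9 genes were tested in a fit over all genes.

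The study asked how tumor-bearing mice with cancer cachexia (wasting of muscle and fat) respond to amiloride, a potassium-sparing diuretic, and to a loss of exosome release by the tumor. Each of 16 libraries came from 1 adult mouse, 4 in each of 4 groups. NOR mice were injected with PBS and carried no tumor. CAC mice carried tumors of LLC (Lewis lung carcinoma) or CT26 (colon carcinoma) cells and were otherwise untreated, with PBS in place of the drug. AM mice (titled T) carried the same tumors and from day 9 had a daily injection of 2 mg/kg amiloride. KD mice were given LLC or CT26 cells in which Rab27, needed for exosome release, was knocked down by shRNA. The knock-down was made in the injected cells and could not be checked in muscle RNA. Muscles of all groups were taken on day 30. Mice 1 and 2 of each group are C57BL/6 (LLC) and mice 3 and 4 are labelled BABL/c, written BALB/c in the protocol (CT26), so that strain and tumor line cannot be told apart.

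The IL-6 cytokines act through a shared signaling chain, gp130 (Il6st), which pairs with a chain specific to each cytokine: the IL-6 receptor alpha chain (Il6ra), the oncostatin M receptor (Osmr), the leukemia inhibitory factor receptor (Lifr), or the ciliary neurotrophic factor receptor (Cntfr). Gp130 carries the kinases JAK1 and JAK2, which phosphorylate STAT3, and STAT3 enters the nucleus and switches on genes such as Socs3, a feedback inhibitor of the same receptors, and Pim1, a kinase that favors survival. Signaling through IL-6 and STAT3 is a known driver of muscle wasting in cancer. Activity of the pathway lies in phosphorylation, which RNA does not show.

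Promoters are shown for the 3 genes that stood highest in CAC mice relative to NOR mice, among the 10, and for Socs3, the only one of the 10 genes with a match to the palindromic STAT core. Each sequence is 300 bases, from 250 bases before the annotated transcript start into the first 50 transcribed bases, on the gene's own strand (RefSeq, GRCm38.p6), and capitals mark the core TTCNNNGAA.
Il6ra, chr3:89913147-89913446, minus strand: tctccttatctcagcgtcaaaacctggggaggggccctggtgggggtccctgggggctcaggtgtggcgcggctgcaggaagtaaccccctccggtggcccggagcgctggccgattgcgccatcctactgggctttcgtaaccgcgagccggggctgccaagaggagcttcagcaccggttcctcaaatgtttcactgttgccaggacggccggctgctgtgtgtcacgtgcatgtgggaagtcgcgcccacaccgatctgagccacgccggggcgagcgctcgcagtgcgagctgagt
Osmr, chr15:6874264-6874563, minus strand: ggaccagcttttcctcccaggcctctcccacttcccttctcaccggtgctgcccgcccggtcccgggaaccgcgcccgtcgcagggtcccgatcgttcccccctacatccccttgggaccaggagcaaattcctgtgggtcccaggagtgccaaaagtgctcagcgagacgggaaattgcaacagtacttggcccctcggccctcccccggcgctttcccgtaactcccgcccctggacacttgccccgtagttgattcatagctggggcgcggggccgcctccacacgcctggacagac
Stat3, chr11:100939491-100939790, minus strand: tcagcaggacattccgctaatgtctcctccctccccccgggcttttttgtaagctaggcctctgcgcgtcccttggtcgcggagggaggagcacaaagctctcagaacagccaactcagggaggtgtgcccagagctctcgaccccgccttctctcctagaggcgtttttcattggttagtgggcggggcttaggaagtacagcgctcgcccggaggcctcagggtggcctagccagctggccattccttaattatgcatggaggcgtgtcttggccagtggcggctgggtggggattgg
Socs3, chr11:117969317-117969616, minus strand: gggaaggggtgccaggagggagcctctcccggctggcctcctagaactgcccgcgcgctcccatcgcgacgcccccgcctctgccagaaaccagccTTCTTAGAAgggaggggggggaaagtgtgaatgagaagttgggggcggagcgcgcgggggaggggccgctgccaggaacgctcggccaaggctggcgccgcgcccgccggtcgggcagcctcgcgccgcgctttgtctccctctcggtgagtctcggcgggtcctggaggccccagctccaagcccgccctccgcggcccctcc
All 10 genes had at least 1 such window, 17 in all, and only that of Socs3 held the core. The core reads the same on both strands, and 8.3% of all 32851 promoter windows held it. These letters were not in the 300 bases shown for Il6ra, Osmr, or Stat3, which says nothing of sites elsewhere.

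The genes lie on 7 chromosomes of GRCm38 (GENCODE M21). Il6ra is at chr3:89864059-89913196, Osmr at chr15:6813577-6874969, and Stat3 at chr11:100885098-100939540, all on the minus strand. Counting by strand is not given in the sources used here, and exons of 4 of the genes overlap another gene. The overlap is 242 of 8642 exonic bases for Il6ra, 4 of 7227 for Jak1, 72 of 9527 for Stat3 (shared with Stat5a), and 488 of 3362 for Pim1.

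Libraries held 35913190 to 61032708 counts, and levels are given as CPM, the usual scaling of a gene's counts to the total of its library, adjusted by the trimmed mean of M values (TMM). The 8 skeletal muscle fiber markers summed to 54346 to 177544 CPM over the 16 libraries, and the lowest sum was in CAC mouse 3. Other cells differed between mice of a group. B and T cell markers summed to at most 3.55 and 2.2 CPM in NOR mouse 1, CAC mice 1 and 4, and KD mice 2 and 3, against at least 42.7 and 19.8 CPM in the other 11 libraries. AM mouse 1 stood apart in hepatocyte markers, with 1208 CPM of Alb against at most 15.4 CPM elsewhere. KD mouse 3 had 0 counts of the Y-linked markers, which summed to 111 to 174 CPM in the other 15 libraries (the protocol names BALB/c mice of both sexes). In bulk muscle, fewer cells of a type and less RNA per cell cannot be told apart.

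Il6ra stood high in CAC mice alone. Its level was 8.93, 15.5, 18.5, and 22.5 CPM in NOR mice 1 to 4 and 50.4, 65.5, 79.4, and 72 CPM in CAC mice. It was 28.5, 18, 19.7, and 18.8 CPM in AM mice and 18.1, 22.9, 20.6, and 19.9 CPM in KD mice. The lowest CAC mouse thus lay above all 12 mice of the other groups, and NOR, AM, and KD mice overlapped. The group means were 16.4 ± 5.72, 66.8 ± 12.4, 21.2 ± 4.87, and 20.4 ± 1.98 CPM in NOR, CAC, AM, and KD mice (SD, n = 4). On the log2 scale, CAC mice differed from NOR mice by 2.04 ± 0.27 (SE). AM mice differed from CAC mice by -1.65 ± 0.21 and KD mice by -1.72 ± 0.16. AM and KD mice differed from NOR mice by 0.39 ± 0.27 and 0.32 ± 0.25. These values are the ones that chose the gene, so that the SE beside them cannot serve as a test.

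By strain, Il6ra in CAC mice differed from NOR mice by 2.24 on the log2 scale in C57BL/6 mice with LLC tumors and by 1.92 in BALB/c mice with CT26 tumors. Between AM and CAC mice the values were -1.30 and -2.01. KD mice gave -1.47 and -1.93 against CAC mice. The sign of each value follows from how the gene was chosen, and no test is given for them.

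**Figure D1:**
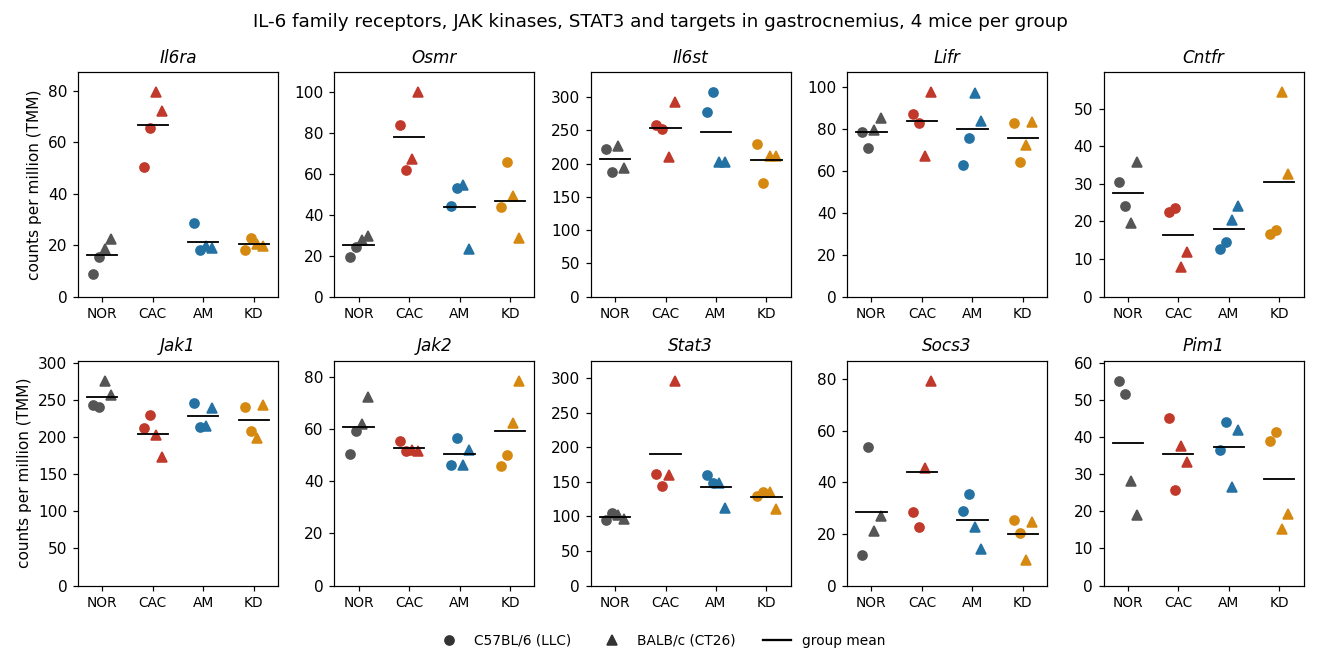
Level of each of the 10 genes in every mouse, in TMM-scaled CPM on axes that start at 0. Circles are C57BL/6 mice (LLC), triangles are BALB/c mice (CT26), and bars are group means; for Il6ra the CAC mice lie between 50.4 and 79.4 CPM, above all other mice.

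Osmr and Stat3 were the genes that passed the test among the other 9. Calls required a false discovery rate (FDR) no higher than 0.05 together with a 1.5-fold change in either direction. In CAC vs. NOR, 2 of the 9 were called, both higher, where 9.45% of the 14666 genes tested were called (4.32% higher and 5.13% lower). An unadjusted p under 0.05 was reached by 3 of the 9 and by 29.1% of all genes. DESeq2 called the same 2 of the 9 and 13.2% of all genes.
Between AM and CAC mice edgeR called 0 of the 9, where 3.66% of all genes were called; 1 of the 9 and 21.7% of all genes had an unadjusted p under 0.05, and DESeq2 called 1, Osmr, and 7.67% of all genes. Between KD and CAC mice edgeR and DESeq2 called 0 of the 9, where edgeR called 0.00685% of all genes (1 gene) and DESeq2 2.43%; 3 of the 9 and 11.1% of all genes had an unadjusted p under 0.05. Against NOR mice, 0 of the 9 and 0% of all genes were called in AM or in KD mice by edgeR, and DESeq2 called 0 of the 9, with 0.476% of all genes in AM mice and 0.211% in KD mice. An unadjusted p under 0.05 was met by 4 of the 9 in AM mice (9.19% of all genes) and by 2 of the 9 in KD mice (3.54% of all genes). Between AM and KD mice both tools called 0 of the 9, where edgeR called 0% and DESeq2 0.00681% of all genes, with 0 of the 9 and 1.11% of all genes at an unadjusted p under 0.05.
Separation of the mice was also counted, with no model. All 4 CAC mice were above all 4 NOR mice for 2 of the 9 genes (12.5% of all genes) and below them for 1 (10.8%). AM mice were all above CAC mice for 0 (6.05%) and all below for 1 (9.27%), and KD mice were all above CAC mice for 0 (3.71%) and all below for 1 (3.58%). Against NOR mice, AM mice were all above for 1 (2.29%) and all below for 0 (2.82%), and KD mice were all above for 1 (1.31%) and all below for 0 (0.949%). AM mice were all above KD mice for 0 (0.509%) and all below for 0 (0.448%). Apart from CAC vs. NOR, the separated genes were Osmr (AM below CAC) and Stat3 (the other 3).

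Osmr, whose product binds oncostatin M together with gp130, was 19.6, 24.5, 27.8, and 29.7 CPM in NOR mice and 83.9, 61.9, 67.3, and 100 CPM in CAC mice. The groups did not overlap, and the change was 3.09-fold (log2 fold change 1.63 ± 0.18 SE, FDR = 0.00245, edgeR). In AM mice its level was 44.3, 53.3, 54.6, and 23.3 CPM. All 4 AM mice lay below all 4 CAC mice, as did 9.27% of all genes, and the log2 difference of -0.84 ± 0.26 did not pass (FDR = 0.107, edgeR). In the KD mice it was 43.8, 65.7, 49.2, and 28.8 CPM, overlapping with CAC mice, and the difference of -0.74 ± 0.26 did not pass (FDR = 0.36, edgeR). In C57BL/6 and BALB/c these differences were -0.57 and -1.13 in AM mice and -0.39 and -1.13 in KD mice. AM mouse 4 and KD mouse 4 were within the range of NOR mice, and the other 6 AM and KD mice stood between the NOR and CAC ranges or within the latter. The rise in CAC mice was 1.73 in C57BL/6 and 1.57 in BALB/c on the log2 scale (interaction FDR = 1), and with any one mouse left out it kept its call, at 1.49 to 1.73.

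Stat3 was 95.3, 105, 102, and 96.7 CPM in NOR mice and 162, 144, 160, and 296 CPM in CAC mice. It rose 1.91-fold (log2 fold change 0.93 ± 0.22, FDR = 0.0277, edgeR), and the groups did not overlap. CAC mouse 4, with 296 CPM, stood far above the other CAC mice; without it the log2 change was 0.64 and still passed (FDR = 0.00746, edgeR). The call was lost without any one of the NOR mice 1 to 4, at FDR values of 0.0635, 0.0722, 0.076, and 0.064 (edgeR), while the log2 change kept to 0.91 to 0.95.
AM mice had 160, 148, 148, and 112 CPM and KD mice 129, 135, 136, and 111 CPM. All KD mice lay below all CAC mice and above all NOR mice, and all AM mice lay above all NOR mice. None of these differences passed: against CAC mice the log2 difference was -0.42 ± 0.23 in AM mice (FDR = 0.348) and -0.58 ± 0.24 in KD mice (FDR = 0.419, edgeR). Against NOR mice it was 0.52 ± 0.12 in AM mice (FDR = 0.518) and 0.36 ± 0.10 in KD mice (FDR = 0.999, edgeR). By strain, Stat3 in CAC mice differed from NOR mice by 0.61 in C57BL/6 and 1.22 in BALB/c on the log2 scale (interaction FDR = 1). Against CAC mice it differed by 0.03 and -0.83 in AM mice (interaction FDR = 0.477) and by -0.18 and -0.91 in KD mice (interaction FDR = 0.866, edgeR), so that the values in C57BL/6 were nearer to 0 in each comparison. The difference between strains passed in none of them.

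The other receptor chains gave smaller differences. Il6st, the gp130 chain, was 222, 187, 226, and 193 CPM in NOR mice and 258, 252, 210, and 293 CPM in CAC mice, which overlapped (log2 fold change 0.28 ± 0.13, FDR = 0.177, edgeR). AM mice had 277, 307, 203, and 203 CPM and KD mice 229, 171, 212, and 212 CPM. Both AM mice with LLC tumors were above their CAC counterparts and both with CT26 tumors were below them. Lifr, the chain for leukemia inhibitory factor, stayed within 62.7 to 97.3 CPM in all 16 mice. Its 95% interval in CAC vs. NOR ran from -0.20 to 0.37 on the log2 scale.

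Cntfr, the chain for ciliary neurotrophic factor, a cytokine of Schwann cells, differed in direction between the strains. In C57BL/6 mice its level was 30.5 and 24.2 CPM in NOR, 22.4 and 23.5 CPM in CAC, 12.6 and 14.6 CPM in AM, and 16.7 and 17.8 CPM in KD. In BALB/c mice it was 19.7 and 35.7 CPM in NOR, 7.86 and 12 CPM in CAC, 20.3 and 24.1 CPM in AM, and 54.3 and 32.7 CPM in KD. In both AM and KD mice, the values were thus below CAC mice in C57BL/6 and above them in BALB/c. Against CAC mice, the strain difference of the log2 change was 1.89 ± 0.32 in AM mice (FDR = 0.26, edgeR) and 2.50 ± 0.43 in KD mice (FDR = 0.858, edgeR), which did not pass over all genes, of which 0% passed in either comparison. DESeq2 called both, and with them 3.18% of all genes in AM and 0.779% in KD mice. Schwann cell markers summed to 110 and 126 CPM in the CAC mice of BALB/c and to 197 to 463 CPM in the BALB/c mice of AM and KD; in C57BL/6 they were 188 and 228 CPM in CAC and 195 to 486 CPM in AM and KD. Their part in the Cntfr values was not tested.

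Of the kinases, Jak1 was 244, 241, 276, and 257 CPM in NOR mice and 212, 230, 203, and 173 CPM in CAC mice. All CAC mice lay below all NOR mice, as did 10.8% of all genes, and the log2 difference of -0.32 ± 0.11 did not pass (FDR = 0.0896, edgeR). Jak1 was 214 to 246 CPM in AM mice and 199 to 244 CPM in KD mice, overlapping with both NOR and CAC mice. Jak2 was 50.4 to 72.4 CPM in NOR mice and 51.5 to 55.3 CPM in CAC mice (log2 difference -0.21 ± 0.10, FDR = 0.199, edgeR). In KD mice Jak2 was 45.7 and 50 CPM in C57BL/6 and 62.5 and 78.5 CPM in BALB/c.

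The RNA of the STAT3 targets Socs3 and Pim1 did not separate the groups. Socs3, which blocks gp130 signaling, was 11.8, 53.7, 21, and 26.9 CPM in NOR mice and 28.3, 22.5, 45.4, and 79.2 CPM in CAC mice. It was 29, 35.3, 22.8, and 14.2 CPM in AM mice and 25.5, 20.3, 9.69, and 24.7 CPM in KD mice. The CAC mice of BALB/c were the highest of their strain, whereas those of C57BL/6 were within the range of the other groups. The log2 difference of CAC from NOR mice was 0.64 ± 0.51 (FDR = 0.459). Those from CAC mice were -0.79 ± 0.42 in AM (FDR = 0.323) and -1.13 ± 0.44 in KD mice (FDR = 0.402, edgeR). The strain difference of the change in AM vs. CAC was -2.12 ± 0.47 (FDR = 0.294, edgeR), and DESeq2 called it. For CAC against NOR mice DESeq2 called 0 interactions of the 9 genes, where it called 0.847% of all genes. Strains were separated in opposite directions for 1 of the 10 genes between CAC and NOR mice (3.2% of all genes), for 3 between AM and CAC mice (8.49%), and for 2 between KD and CAC mice (5.65%).
Pim1 was 55.2, 51.6, 28.1, and 19.1 CPM in NOR mice, 25.7 to 45.2 CPM in CAC mice, 26.5 to 44.1 CPM in AM mice, and 39.1, 41.5, 15.2, and 19.4 CPM in KD mice. In NOR and KD, both C57BL/6 mice had more Pim1 RNA than both BALB/c mice. Its log2 difference in CAC vs. NOR was -0.13 ± 0.35 (FDR = 0.854, edgeR).

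**Figure D2:**
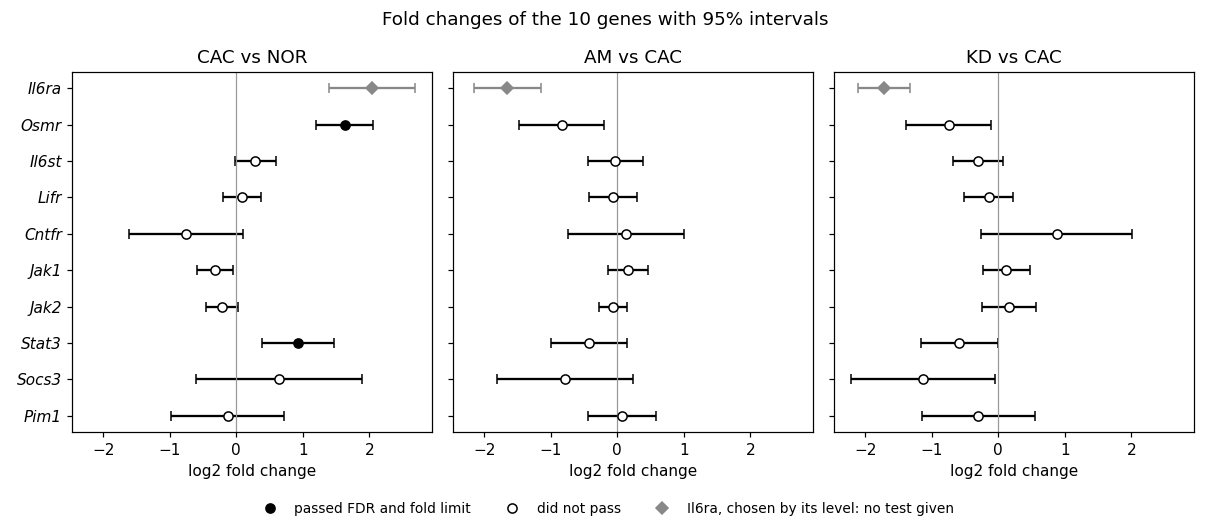
Log2 fold change of the 10 genes in CAC mice against NOR mice and in AM and KD mice against CAC mice, with approximate 95% intervals. These use the standard error derived from the F test and 6 residual degrees of freedom. Filled circles (Osmr at 1.63 and Stat3 at 0.93 in CAC vs. NOR) passed the FDR and fold limits, open circles did not, and gray diamonds are Il6ra, whose values chose it and for which no test is given.

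Levels of different genes were compared per length, as FPKM, which divides fragments by gene length and library size. In NOR mice Jak1 and Il6st led, with means of 92.9 ± 9.06 and 70.9 ± 5.32 FPKM (SD, n = 4), and each lay above the next gene in all 4 mice. Stat3 at 24.2 ± 2.32, Lifr at 19.8 ± 1.88, and Cntfr at 18.5 ± 4.77 FPKM overlapped in range. Osmr at 5.21 ± 1.14 FPKM and Il6ra at 2.69 ± 1.04 FPKM were the lowest, and their ranges also met. The cytokine-specific chain of the IL-6 receptor was thus the least abundant of the 10 in NOR mice.
In CAC mice Il6ra reached 12 ± 3.53 FPKM and ranked 8th, with a range that overlapped those of Socs3, Osmr, Pim1, Cntfr, and Jak2. Osmr, at 17.4 ± 3.89 FPKM, ranked 6th, and Stat3, at 50.5 ± 19.6 FPKM, had rank 3 and lay above the range of Lifr. In AM and KD mice Il6ra was again last, at 3.64 ± 1.1 and 3.28 ± 0.19 FPKM.

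Set against gp130 in the same mouse, Il6ra was 1.9% to 5.5% of the Il6st level per length in NOR mice and 9.23% to 17.8% in CAC mice. It was 2.77% to 4.85% in AM mice and 3.73% to 6.31% in KD mice. Osmr was 5.27% to 9.12% of Il6st in NOR mice, 14.6% to 20.4% in CAC mice, 6.81% to 16% in AM mice, and 8.08% to 22.8% in KD mice. These ratios reuse the values that chose Il6ra and were not tested.

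**Figure D3:**
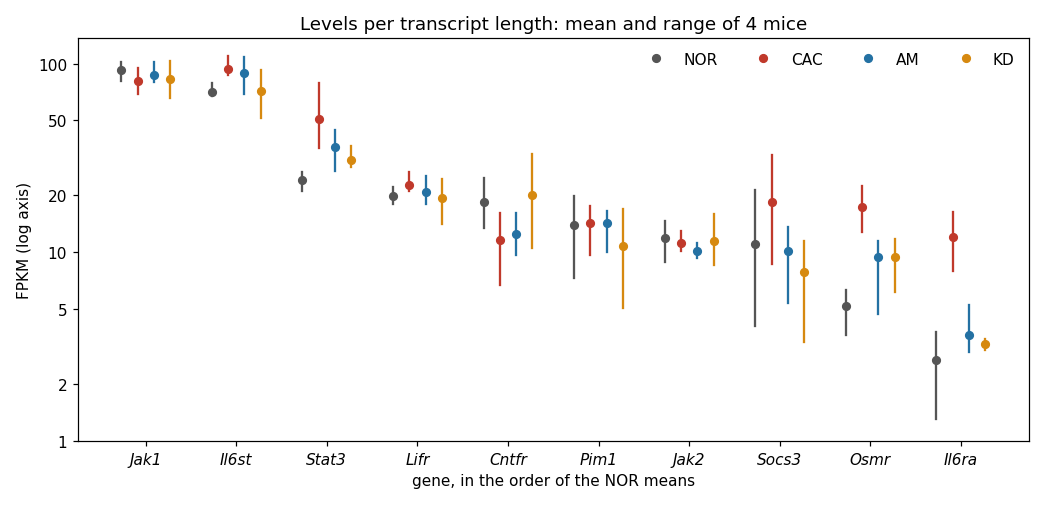
Mean (point) and range (line) of FPKM over 4 mice in each group, on a log axis, for the 10 genes in the order of their NOR means. Il6ra is last in NOR, AM, and KD mice (2.69, 3.64, and 3.28 FPKM) and level with Pim1, Cntfr, and Jak2 in CAC mice (12 FPKM).

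Markers of other cell types moved with the groups. IL-6 receptor alpha is known from hepatocytes, neutrophils, and some lymphocytes as well as muscle. The 9 neutrophil markers (among them S100a8, S100a9, Cxcr2, and Csf3r) summed to 14 to 47.5 CPM in NOR mice and 131 to 316 CPM in CAC mice. Of the 9, 6 were called higher in CAC vs. NOR, where 4.32% of all genes were. In AM mice 1 to 4 the sums were 84.1, 195, 277, and 27.1 CPM, and in KD mice they were 402, 157, 19.9, and 335 CPM. Against CAC mice 0 of 9 were called lower. Of all genes, 2.03% were called lower in AM mice and 0.00685% in KD mice, so that a count of 0 says little. The neutrophil sums of AM and KD mice thus ranged from NOR to CAC levels or above.
B cell markers summed to 3.55, 302, 292, and 272 CPM in NOR mice 1 to 4 and to 1.26, 155, 419, and 1.39 CPM in CAC mice. They were 545, 139, 42.7, and 293 CPM in AM mice and 393, 0.546, 0.633, and 136 CPM in KD mice. In CAC vs. NOR, 0 of 8 were called, where 9.45% of all genes were. NOR, CAC, and KD each held mice with sums near 0 and mice with high sums. With a lymphocyte score as a covariate, the log2 differences in CAC vs. NOR were 2.25 for Il6ra, 1.57 for Osmr (FDR = 0.00349, edgeR), and 0.80 for Stat3 (FDR = 0.0383, edgeR).
Of the hepatocyte markers, Alb was 1208 CPM in AM mouse 1, which has the highest Il6ra of its group, and at most 15.4 CPM in the other 15 mice. The sum of these markers was 1790 CPM in AM mouse 1 and 45.2 to 536 CPM in the other mice, where most of it was 1 gene, Cyp2e1, at 44.8 to 528 CPM. Without AM mouse 1, the log2 difference of Il6ra in AM vs. CAC was -1.84.
The sum of the 5 fibroblast markers was lower in CAC mice, at 801 to 1331 CPM against 2280 to 2853 CPM in NOR mice. Of the 5, 2 were called lower, where 5.13% of all genes were. Col1a1 was 516 to 838 CPM in NOR and 38.4 to 67.3 CPM in CAC mice, and Col3a1 677 to 1029 and 89.5 to 169 CPM. Lum was also lower in all CAC mice, while Dcn and Pdgfra overlapped between the groups. The 5 markers summed to 1837 to 2541 CPM in AM mice and to 704 to 3077 CPM in KD mice. Against CAC mice, 2 of 5 were called higher in AM mice (1.63% of all genes) and 0 in KD mice (0% of all genes). All 3 erythroid markers (Hba-a1, Hbb-bs, and Alas2) were called higher in CAC vs. NOR, as were 4.32% of all genes. They summed to 643 to 890 CPM in NOR and 2462 to 5684 CPM in CAC mice. Their sums were 618 to 10289 CPM in AM mice and 1429 to 13696 CPM in KD mice. Against CAC mice 0 of 3 were called, where 3.66% of all genes were in AM and 0.00685% in KD mice. Macrophage markers summed to 228 to 650 CPM in NOR and 554 to 845 CPM in CAC mice, and 0 of 9 were called (9.45% of all genes). The part of neutrophils, macrophages, hepatocytes, fibroblasts, and erythroid cells in the differences of Il6ra, Osmr, and Stat3 was not tested, and that of lymphocytes was not tested beyond the covariate.

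**Figure D4:**
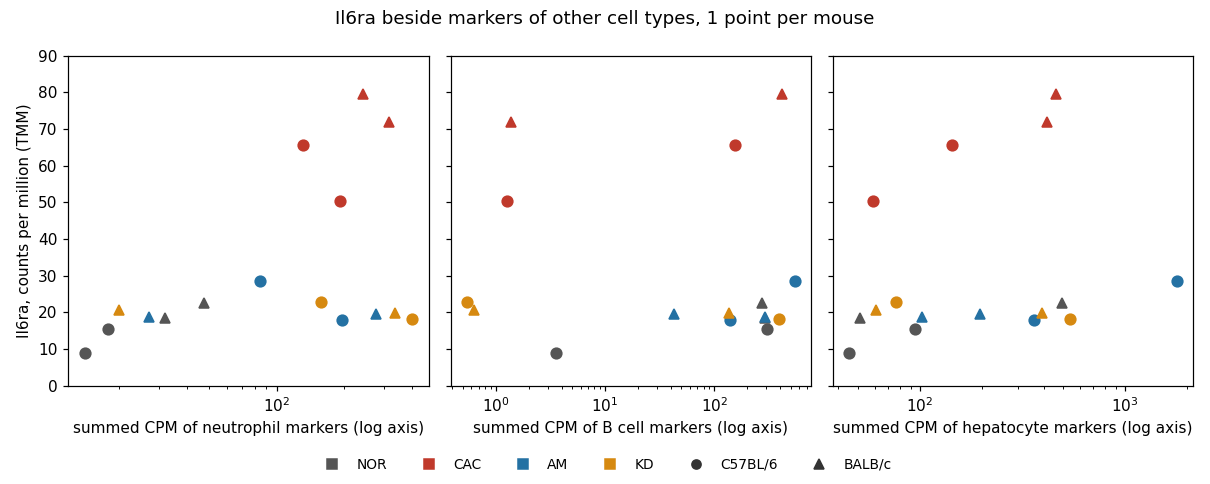
Il6ra level against the summed level of neutrophil, B cell, and hepatocyte markers (log axes), with 1 point per mouse, colored by group and shaped by strain. The CAC mice lie at 50.4 to 79.4 CPM of Il6ra and the other mice at 8.93 to 28.5 CPM; AM mouse 1 is farthest to the right among the hepatocyte sums (1790 CPM), which in the other mice are mostly Cyp2e1.

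The ligands of the family were scarce in muscle RNA. Il6 itself had 0 to 12 counts per library, at most 0.339 CPM, and Il11 had 0 to 12 counts, so that both, with Il27 (at most 0.207 CPM), fell below the count limit of the test. Of the 7 that were tested, Osm, the ligand of Osmr, was 0 to 0.945 CPM in NOR mice and 0.269 to 1.79 CPM in CAC mice. Lif was 0.653 to 1.11 CPM in NOR mice and 0.183 to 0.943 CPM in CAC mice (log2 difference -1.06 ± 0.55, FDR = 0.246, edgeR). Cntf was 3.35 to 5.24 and 3.84 to 8.16 CPM and Ctf1 (cardiotrophin) 7.07 to 8.57 and 4.72 to 9.4 CPM. Clcf1 was 0.932 to 4.12 and 0.711 to 3.57 CPM, and Ebi3 0.388 to 1.63 and 1.47 to 4.25 CPM. Of the 7, edgeR called 0 between CAC and NOR mice, with 0 at an unadjusted p under 0.05. The same held for KD against CAC mice.
The other receptors of the family were Il11ra1, Il27ra, and Il31ra. Il11ra1, the alpha chain for interleukin-11, was 65 to 68.4 CPM in NOR mice and 62.7, 59.7, 44.1, and 44.7 CPM in CAC mice. All CAC mice were lower, and the log2 difference of -0.34 ± 0.12 did not pass (FDR = 0.11, edgeR), so that it lay on the other side of 0 from the Il6ra difference. Il27ra was 1.81 to 13.5 CPM in NOR and 1.9 to 13.3 CPM in CAC mice, and Il31ra was at most 0.211 CPM in any mouse.

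Of the other JAK and STAT genes, 1 of 8 was called in CAC vs. NOR, where 9.45% of all genes were. Jak3, a kinase of cytokine receptors in blood cells, was 20.9 to 36.6 CPM in NOR mice and 41.6 to 61.3 CPM in CAC mice (log2 fold change 0.68 ± 0.19, FDR = 0.0458, edgeR), a call that was lost when any one mouse was left out. Tyk2, Stat2, Stat4, Stat5a, Stat5b, and Stat6 did not pass. None of the 15 inhibitors, which include Socs1, Cish, the Pias genes, and the phosphatases of JAK and STAT proteins, passed both limits. Pias4 met the FDR limit alone, and 4 of the 15 had an unadjusted p under 0.05, as did 29.1% of all genes. None of the 4 genes of receptor shedding (Adam10, Adam17, Rhbdf1, and Rhbdf2), which release soluble receptor from cells, passed, with 1 of 4 at an unadjusted p under 0.05. Against CAC mice, 0 genes of these lists were called by edgeR in AM or KD mice, with 2 and 1 of the inhibitors and 0 of the others at an unadjusted p under 0.05, which 21.7% and 11.1% of all genes had. DESeq2 called Socs2, lower in AM mice.

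The list of 30 known STAT3 target genes held most of the calls. In CAC vs. NOR, 12 of the 25 that could be tested were called, 9 higher and 3 lower, against 9.45% of all genes. DESeq2 called these 12 and also Bcl3, Lbp, and Serpina3n, all higher. The median log2 difference of the 25 was 0.96, and that of all genes was 0.01. Both the number and the median are descriptions, since the list was chosen with earlier results of these data known.
Of the acute-phase genes, Saa3, a serum amyloid A made outside the liver, was 0 to 0.15 CPM in NOR mice and 8.03, 3.31, 38.3, and 16.3 CPM in CAC mice (log2 fold change 7.76 ± 1.03, FDR = 0.00416, edgeR). Its counts in NOR mice were 0 to 9 per library, so that the size of the fold rests on few reads. Lcn2, an iron-siderophore binder of neutrophils and inflamed tissue, was 0.699 to 4.52 CPM in NOR and 28.1, 14.4, 30.3, and 139 CPM in CAC mice (4.65 ± 0.90, FDR = 0.0141, edgeR). Saa1 rose from at most 0.259 CPM to 0.425 to 1.61 CPM (2.56 ± 0.55, FDR = 0.0206, edgeR).
Of the transcription factors, Cebpd, which acts with STAT3 in wasting muscle, was 37.7, 31.8, 39.6, and 97.7 CPM in NOR mice and 463, 244, 282, and 407 CPM in CAC mice (log2 fold change 2.76 ± 0.40, FDR = 0.00522, edgeR). Nfil3, a repressor of the bZIP class, rose by 1.36 ± 0.26 and Myc, a growth regulator, by 1.05 ± 0.23 on the log2 scale. Icam1, an adhesion molecule, rose by 1.16 ± 0.29, Il4ra, the interleukin-4 receptor, by 0.97 ± 0.20, and Mcl1, a survival factor, by 0.68 ± 0.17. The 3 that fell were Fos (-2.29 ± 0.59), Ccnd1, the D1 cyclin (-1.56 ± 0.26), and Bcl6, a repressor of immune genes (to 0.5 of its NOR level, log2 SE 0.22). Of the calls in this list, those of Saa3, Cebpd, Nfil3, and Ccnd1 held with each of the 8 mice left out in turn, while those of Fos, Icam1, and Mcl1 held in 2 of 8. Fos overlapped between the groups. The calls of Lcn2 and Il4ra were lost only without NOR mouse 3 and that of Bcl6 without NOR mouse 1 or 3. Myc lost its call without NOR mouse 2 or 3 or CAC mouse 1 or 3, and Saa1 without NOR mouse 2, 3, or 4 or CAC mouse 1. Fos kept its call only without NOR mouse 1 or CAC mouse 4, Icam1 only without CAC mouse 1 or 2, and Mcl1 only without NOR mouse 4 or CAC mouse 3.

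In AM vs. CAC, 3 of 26 tested STAT3 targets were called, all lower, where 2.03% of all genes were called lower. The median log2 difference of the 26 was -0.26, against 0.01 for all genes. Cebpd was 61.5, 60.3, 64.5, and 86 CPM in AM mice, below all CAC mice (log2 fold change -2.35 ± 0.22, FDR = 0.0032, edgeR). Saa3 was 0.107 to 0.59 CPM (-5.80 ± 0.90, FDR = 0.0137, edgeR) and Myc 7.38 to 11.3 CPM (-1.02 ± 0.22, FDR = 0.0378, edgeR). The calls of Cebpd and Saa3 held with each mouse left out, and that of Myc held in 1 of 8 (without CAC mouse 2). DESeq2 called these 3 and also Nfil3 and Mcl1, both lower. Saa1 in AM mouse 1 was 34.3 CPM, against at most 0.717 CPM in the other AM mice, and this mouse also had the high hepatocyte markers.
In KD vs. CAC, 0 of 26 were called by edgeR, which called 0.00685% of all genes, and 6 of 26 had an unadjusted p under 0.05, as did 11.1% of all genes. DESeq2 called Nfil3, Saa1, and Saa3, all lower, and 2.43% of all genes. Saa3 was 0.174, 0.199, 0, and 0.55 CPM in KD mice, all below the CAC mice (log2 difference -6.14 ± 1.15, FDR = 0.231, edgeR). Cebpd was 33.4, 325, 63.2, and 62.4 CPM, and KD mouse 2 lay within the CAC range. All 3 of these comparisons share the 4 CAC mice, so that their values are not independent.

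**Figure D5:**
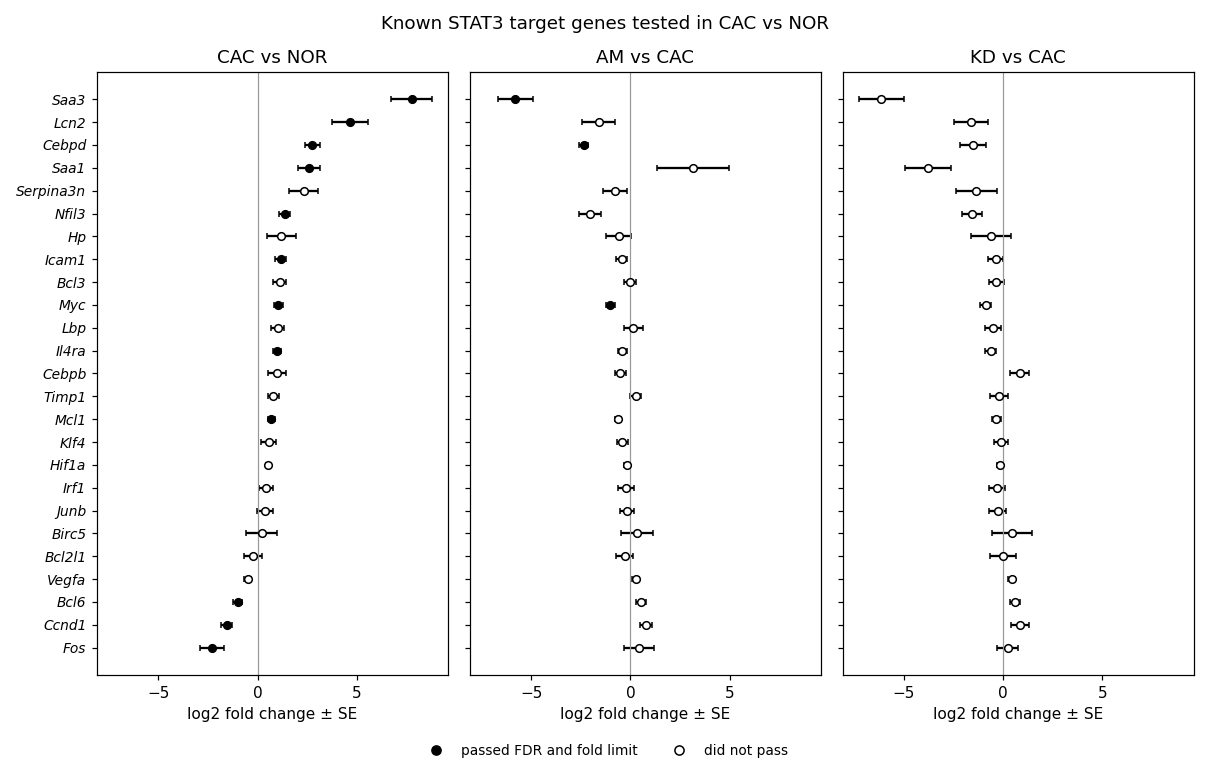
Log2 fold change with its standard error for the 25 known STAT3 target genes tested in CAC vs. NOR, and for the same genes in AM and KD mice against CAC mice. Filled points passed the FDR and fold limits: 9 higher and 3 lower in CAC mice, 3 lower in AM mice, and 0 in KD mice.

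Genes with the pattern most like Il6ra were found by the root mean square difference of log2 CPM, each gene centered on its own mean over the 16 libraries, among 13210 genes of at least 1 CPM. The nearest was Arhgap26, a GTPase regulator, at 0.33, where the median gene was at 0.91. Its mean was 7.68 CPM in NOR mice, 31.1 CPM in CAC mice, 11.2 CPM in AM mice, and 10.2 CPM in KD mice. Sesn1, a stress-induced inhibitor of mTORC1 signaling, was at 0.39 and Eif4ebp1, which holds back cap-dependent translation, at 0.42. Eif4ebp1 had means of 66.4, 349, 82.8, and 95.4 CPM in NOR, CAC, AM, and KD mice. Amigo2 followed at 0.42 and Mocos at 0.43. All 5 had their highest mean in CAC mice, which follows from picking them by likeness to Il6ra, itself chosen for its level in that group.
For Stat3 the nearest were Ctsl, the lysosomal protease cathepsin L, at 0.17, Mroh1 at 0.18, Lsr at 0.19, Ccni at 0.19, and Fam8a1 at 0.19, where the median gene was at 0.49. Ctsl had means of 112, 249, 143, and 137 CPM in NOR, CAC, AM, and KD mice.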

How the data were processed

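Poly(A) RNA of 16 mouse gastrocnemius muscles was sequenced by the study (Illumina HiSeq2500). Per the labels, the authors' processing used fastp, Bowtie2, HISAT2, and StringTie 1.3.1 and the builds mm9 and GRCm38, in no stated role, and strand is not given in the sources used here. The authors deposited raw whole-number counts for each gene and FPKM values. The deposited FPKM values follow from the counts with 1 length per gene (5953 genes were checked, and between libraries the length so implied moved by 0.179% or less).

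Counts were tested in R 4.3.3 with edgeR 4.0.16 by its quasi-likelihood F test (TMM scaling; filterByExpr at its limits of 10 per library and 15 in total), fitted to the 8 libraries compared, with Benjamini-Hochberg adjustment over all genes tested. Calls needed an FDR no higher than 0.05 and a 1.5-fold change. NOISeq, which the study used, was not used here. The interaction of strain and condition was tested at the same FDR limit. FPKM served for levels between genes. DESeq2 1.42.0, limma-voom (limma 3.58.1), other scalings and filters, strain, replicate, or lymphocyte covariates, 1 fit of all libraries, each strain alone, and each mouse left out were the alternatives.

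The members and lists were chosen with earlier results of these data known. Named genes are the members, the called pathway genes, the ligands and other receptors, and the 5 genes nearest in pattern to Il6ra and Stat3; values of a few list genes are not reported here. Replicates are separate mice by the labels' titles. Pairs of libraries of a group differed by at least 66.6 in chi-square per degree of freedom, far above counting error. The replicate numbers were not taken as pairs, since same-numbered mice did not all deviate together (correlations of -0.189 to 0.601 between CAC and NOR mice, and at most 0.0455 between AM or KD and CAC mice). Promoters are from RefSeq (GRCm38.p6) and gene positions from GENCODE M21, and protein sequences were not used here.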

Additional observations from a re-analysis of the deposited data

Results flagged for a closer look

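In 3 of 40 sets of 4 mice (10 genes in 4 groups), 1 mouse stood apart from the other 3 by Dixon's criterion, which chance alone meets in about 1 in 20 sets. Il6ra was 28.5 CPM in AM mouse 1, where the next was 19.7 CPM; this library also had the highest hepatocyte markers. Jak2 was 55.3 CPM in CAC mouse 1, next to 52 CPM, in a group with a narrow range. Stat3 was 296 CPM in CAC mouse 4, next to 162 CPM, and the same mouse had the highest Lcn2 (139 CPM) and Serpina3n (301 CPM).

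Strains were separated in opposite directions for 6 pairs of gene and comparison. The BALB/c minus C57BL/6 difference of the log2 change of CAC from NOR mice was 1.26 for Pim1 (interaction FDR = 0.957), in a comparison where 3.2% of all genes were so separated. For AM against CAC mice (8.49%) it was 1.89 for Cntfr (FDR = 0.26), -0.53 for Il6st (FDR = 0.453), and -2.12 for Socs3 (FDR = 0.294). For KD against CAC mice (5.65%) it was 2.50 for Cntfr (FDR = 0.858) and 0.56 for Jak2 (FDR = 0.866, edgeR). DESeq2 called the interaction for Cntfr in both of the latter and for Socs3 in AM mice, where it called 3.18% of all genes in AM and 0.779% in KD mice.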

How the results depend on the processing

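Of the 9 genes other than Il6ra, the 2 calls in CAC vs. NOR stayed under RLE, upper-quartile, and total-count scaling, without the count filter, with DESeq2, limma-voom, strain or lymphocyte covariates, all 16 libraries in 1 fit, and no fold limit. They numbered 1 in C57BL/6 mice alone (4 mice), 0 in BALB/c mice alone, and 1 to 2 with a mouse left out. Each of these fits also has fewer mice, and the cause of the lost calls was not tested. The replicate numbers did not pair the mice (correlations of deviations -0.636 to 0.601; between CAC and NOR mice 1 of 4 correlated best with its own number), and the replicate block gave 1 call, Osmr, as Stat3 went to an FDR of 0.0583. DESeq2 called 1 of the 9 in AM vs. CAC, and every other alternative gave 0 there, and all gave 0 in KD vs. CAC and in the 3 comparisons without CAC mice. Strain interactions numbered 2 with DESeq2 in AM vs. CAC (3.18% of all genes), 1 in KD vs. CAC (0.779%), and 0 in all other fits.

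Pathway genes called in CAC vs. NOR were 13, and 3 in C57BL/6 mice alone, 0 in BALB/c mice alone, and 4 (without NOR mouse 3) to 12 with a mouse left out; without NOR mouse 2 or CAC mouse 1 they were 8. In AM vs. CAC, 3 were called, and 7 with DESeq2, 1 with all 16 libraries in 1 fit, 0 with the replicate block, 0 in either strain alone, and 2 to 3 with a mouse left out. In KD vs. CAC, 0 were called, and 3 with DESeq2 and 1 with all 16 libraries. Of 210 refitted log2 differences in each of the 3 comparisons with CAC mice, 7, 18, and 3 changed sign (CAC, AM, and KD mice as the first group), none of a called value; 8 lost a call in the first and 1 gained it in the second. Saa3 and Saa1 had at most 10 counts in each NOR library, and several ligands and Il31ra also had few counts, so that their differences rest on few reads.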
